A study of Homo sapiens with 80 samples.

Results

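Solute carriers are the membrane proteins that move amino acids, sugars, ions, metals, vitamins and other small molecules across the plasma membrane and the membranes of organelles, and their genes are numbered by family (SLC1, SLC2 and so on). Here they were the gene symbols that start with SLC and a number and had a probe detected, at a detection p under 0.05, on at least 40 of the 80 arrays, and 203 of 320 such symbols on the array met that rule. Of the 203, 72 were detected on fewer than all 80 arrays. Another 49 symbols were detected on 4 to 39 arrays and 68 on fewer than 4. Just inside the threshold lay SLC71A1 and SLC45A2 (43 arrays each), SLC1A7 (44) and SLC25A18 (46), and just outside it SLC25A16 (39), SLC35D4 (38) and SLC46A1 (37). The 203 belonged to 51 families. A few symbols that the rule takes in do not name a transporter: SLC7A5P2 is a pseudogene, and SLC2A4RG, SLC4A1AP and SLC7A6OS are genes named for a carrier that they regulate, bind or lie opposite to.

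The arrays measured RNA of U2OS cells, a human osteosarcoma line with little glucocorticoid receptor (GR) of its own, which expressed GRgamma, A477T, 30iiB, E773R or GRalpha. Cells of each allele received 100 nM dexamethasone, a synthetic glucocorticoid, for 2, 4 or 24 h, or ethanol, the vehicle, for 4 h, which the labels call 0 h. Every one of the 20 groups had 4 biological replicates. GR is a transcription factor that enters the nucleus once a steroid binds it. GRalpha is the main form of the receptor. The splice form GRgamma has a DNA-binding domain with 1 more arginine, and in A477T the dimer interface of that domain is changed. In 30iiB the activation function at the N terminus is altered, and in E773R that of the ligand-binding domain. All 5 lines were grown alike, in medium with serum. How each allele was introduced and whether a line was 1 clone is not stated in the labels, and a difference between alleles and a difference between lines cannot be told apart. No ethanol culture of 2 or 24 h is among the 20 groups, so at those times hormone and time in culture cannot be told apart. The 4 h cultures have an ethanol culture of the same length.

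Glucocorticoids change how tissues take up and release glucose and amino acids, and carriers stand at several of these steps: SLC2 proteins admit glucose, SLC7 proteins exchange amino acids, and SLC25 proteins carry metabolites through the inner mitochondrial membrane. Of the other families large enough to count, SLC35 moves nucleotide sugars into the Golgi, SLC39 and SLC30 move zinc into and out of the cytosol, and SLC9 and SLC12 exchange sodium, protons, potassium and chloride.

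Median raw signal per array lay between 82 and 926 units and between 12233 and 17333 probes were detected. The correlation of an array with the others of its group lay between 0.902 and 0.986. Of the mesenchymal markers on the array, 7 of 8 were detected on at least 40 arrays, as were 0 of 3 blood markers, 1 of 4 liver markers (SERPINA1) and 4 of 5 epithelial markers (CDH1, EPCAM, KRT8 and KRT18). Of 19 carriers that mark kidney, neurons, melanocytes or other specialised cells, 5 were detected on at least 40 arrays (SLC17A7, SLC18A2, SLC22A6, SLC34A1 and SLC45A2) and 12 on fewer than 4. The 10 slides held 8 arrays each and at most 1 array of a group. Values below are log2 normalised signals, on which a difference of 1 stands for a 2-fold change, compared only within a probe. A member is called where limma gave an adjusted p (Benjamini-Hochberg, over the 12547 genes tested) under 0.05, and "rose" or "fell" is written only of called members.

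Across the carriers, most calls were at 24 h, and their number lay between 15 in E773R and 49 in GRgamma. In GRgamma 34 members rose and 15 fell (24.1% of the members, against 17.5% of all genes), in A477T 6 rose and 13 fell (9.36% against 9.25%), in 30iiB 20 rose and 20 fell (19.7% against 16.4%), and in E773R 10 rose and 5 fell (7.39% against 5.64%). In GRalpha 26 rose and 20 fell (22.7% against 17.9%). By direction, 9.86% of all genes rose and 7.67% fell in GRgamma, 4.63% and 4.62% in A477T, 8.07% and 8.3% in 30iiB, 3.05% and 2.59% in E773R, and 8.66% and 9.21% in GRalpha. The same shares of the members that rose and fell were 16.7% and 7.39% in GRgamma, 2.96% and 6.4% in A477T, 9.85% and 9.85% in 30iiB, 4.93% and 2.46% in E773R, and 12.8% and 9.85% in GRalpha. Members are detected on at least 40 arrays by rule, and among the 10387 genes of all kinds detected that often the share called was 19.2% in GRgamma, 9.15% in A477T, 17.1% in 30iiB, 6.1% in E773R and 19.4% in GRalpha, in each allele a little below the share of the members, a difference that was not tested. The balance of directions depended on the processing in 3 alleles. With scaling by array medians, 13 rose and 21 fell in 30iiB. With the authors' deposited normalised values, taken for the same probes of the same 12547 genes, 27 rose and 21 fell in A477T. With those values 18 rose and 17 fell in E773R. With the slide as a block 10 rose and 12 fell in A477T and 10 rose and 11 fell in E773R. The median change over all members lay between 0.03 and 0.14 in the 5 alleles.

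Earlier, fewer members were called: at 2 h 8 in GRgamma (3.94% against 1.69% of all genes), 2 in A477T (0.985% against 1.88% of all genes), 5 in 30iiB (2.46% against 2.41% of all genes), 1 in E773R (0.493% against 0.359% of all genes) and 3 in GRalpha (1.48% against 1.79% of all genes). At 4 h the counts were 7 in GRgamma (3.45% against 4.35% of all genes), 3 in A477T (1.48% against 3.33% of all genes), 9 in 30iiB (4.43% against 4.42% of all genes), 2 in E773R (0.985% against 1.14% of all genes) and 8 in GRalpha (3.94% against 4.73% of all genes). These early counts depend on the processing: that of GRgamma at 2 h was 2 when only the compared groups entered the fit and 4 to 7 without 1 array, and with the authors' values GRgamma had 14 higher and 8 lower at 4 h, against 7 and 0 here. Of the members that rose at 24 h, 1 did so in all 5 alleles (SLC7A8) and 4 fell in all 5 (SLC16A9, SLC35F3, SLC7A1 and SLC7A5). Among all 12547 genes, 146 rose and 162 fell in all 5 alleles at 24 h. No member was called in the same direction in all 5 alleles at 4 h or at 2 h. Among all genes 40 rose and 16 fell in all 5 at 4 h, and 16 rose and 1 fell at 2 h. In all, 76 of the 203 were called in at least 1 of the 15 comparisons of an hour with 0 h. The matching share of all genes is not given here. On each slide that held both arrays of a comparison, on 1 to 3 slides per comparison at 4 and 24 h, every member called had the sign of the fit (49 of 49 in GRgamma at 24 h on 1 slide, and 46 of 46 in GRalpha at 24 h on 3 slides). These arrays also gave the calls, so the shared sign is not an independent check.

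**Figure D1:**
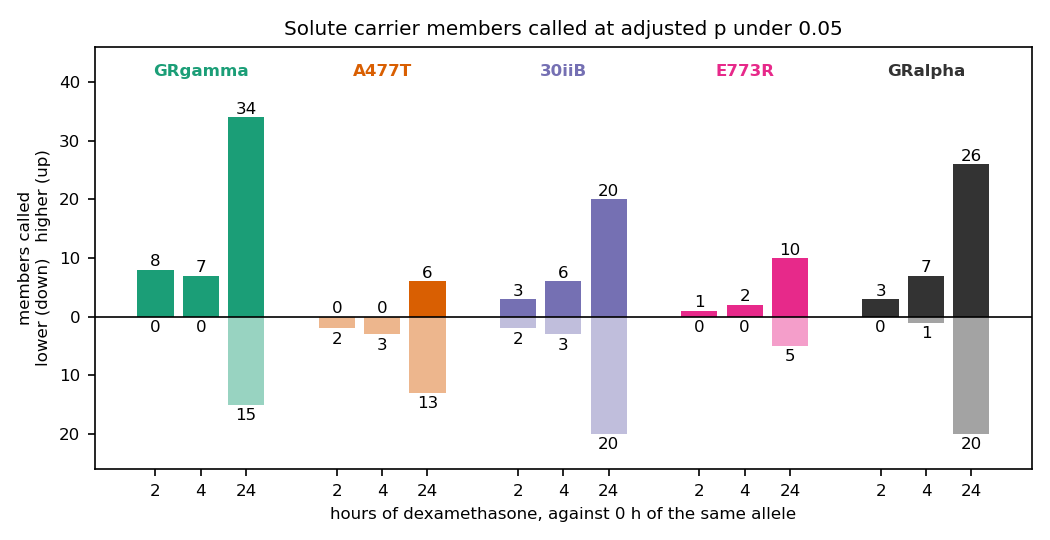
Number of the 203 solute carriers called higher (bars above 0) and lower (pale bars below 0) after 2, 4 and 24 h of dexamethasone, against 0 h of the same allele, 4 arrays per group. The bars at 24 h are the tallest of each allele, with 34 higher and 15 lower in GRgamma and 6 higher and 13 lower in A477T.

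Among the 32 mitochondrial carriers (SLC25), SLC25A18, which carries glutamate into mitochondria, had the largest change of any member in 4 alleles and none that was called in A477T. In GRgamma cells its values were 11.05, 11.3, 11.34 and 11.69 at 24 h, against 5.13, 5.09, 5.29 and 5.03 at 0 h. In A477T cells they were 5.16, 5.03, 5.13 and 5.19 at 24 h, against 4.95, 5.21, 5.2 and 5.04 at 0 h. In 30iiB cells they were 11.86, 12.21, 12.13 and 12.25 at 24 h, against 5.29, 5.43, 5.36 and 5.02 at 0 h. The 24 h and 0 h arrays stood wholly apart in GRgamma and 30iiB and overlapped in A477T. In E773R cells the values were 9.97, 10.38, 10.03 and 10.7 at 24 h, against 4.82, 5.22, 5.24 and 5.44 at 0 h. The values in GRalpha cells were 11.76, 11.66, 12 and 12.14 at 24 h, against 4.89, 4.86, 5.04 and 5.33 at 0 h, again with no overlap in either allele. The probe was not detected on any of the 20 arrays at 0 h, so each rise is a lower bound: it was at least 37.9-fold higher in GRgamma, 74.9-fold in 30iiB, 18.9-fold in E773R and 69.3-fold in GRalpha at 24 h. For such a bound the mean of the 24 h arrays is set against, on each 0 h array, the lowest signal of a detected probe or the gene's own signal, whichever is higher. The fitted differences were 6.21 in GRgamma (adjusted p = 5.5e-31), 0.03 in A477T (adjusted p = 0.98), 6.84 in 30iiB (adjusted p = 2.7e-33), 5.09 in E773R (adjusted p = 3.3e-26) and 6.86 in GRalpha (adjusted p = 1.4e-33), each with an SE of 0.25. In A477T the probe was detected on 1 of 4 arrays at 2 h and on 0 of 4 at 4 h and at 24 h. The gene met the rule of 40 arrays (with 46) only through the groups in which it rose. These are RNA levels of whole cultures, in which fewer cells with a transcript and less of it per cell cannot be told apart.

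SLC25A18 was already called higher at 2 h in GRgamma, 30iiB and GRalpha. At 2 h, 4 h and 24 h the fitted difference from 0 h was 1.74, 3.48 and 6.21 in GRgamma, 2.46, 3.68 and 6.84 in 30iiB, 0.7 (not called), 2.09 and 5.09 in E773R, and 1.92, 4.3 and 6.86 in GRalpha. At 4 h, the time with an ethanol culture of equal length, it was at least 5.73-fold higher in GRgamma, 8.39-fold in 30iiB, 2.36-fold in E773R and 11.7-fold in GRalpha. The response was below that of GRalpha in A477T at 4 h (fitted difference -3.72, adjusted p = 6.6e-12) and at 24 h (-6.84, adjusted p = 1.1e-24). These fitted sizes rest on A477T values at background, where the probe was not detected at 0, 4 or 24 h. The size of the difference is therefore not known. The bounds above, at least 11.7-fold at 4 h and 69.3-fold at 24 h, hold for the GRalpha response alone. It was also below GRalpha in E773R at 4 h (-2.21, adjusted p = 9e-05) and 24 h (-1.77, adjusted p = 0.001). Between 30iiB and GRalpha the difference at 24 h was -0.02, with a 95% interval of -0.74 to 0.7, and between GRgamma and GRalpha it was -0.65, with an interval of -1.37 to 0.07. All of these take each allele's 0 h values, at background, as they stand.

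Of all 32 mitochondrial carriers at 24 h, 4 rose and 1 fell in GRgamma, 0 rose and 1 fell in A477T, 2 rose and 1 fell in 30iiB, 1 rose and 0 fell in E773R and 5 rose and 0 fell in GRalpha. The share of all genes called at 24 h was 17.5% in GRgamma, 9.25% in A477T, 16.4% in 30iiB, 5.64% in E773R and 17.9% in GRalpha. No substrate group was tested as a set. SLC25A38, which imports glycine for heme synthesis, rose in GRgamma (0.86), 30iiB (0.81) and GRalpha (0.9), though in GRalpha it was not called without 0 h replicate 4 (0.78) or 24 h replicate 1 (0.77). SLC25A42, a coenzyme A carrier, rose in GRgamma (1.11) and GRalpha (1.36), as did SLC25A34 (1.69 and 1.01). SLC25A35 rose only in the GRalpha comparison (1.13), a call lost without any 1 of 4 arrays (0.96 to 1.05), and its difference between alleles was not called at any time. SLC25A37, the iron carrier mitoferrin, fell in GRgamma (-1.23) and A477T (-0.87). SLC25A20, which carries acylcarnitines, fell in 30iiB (-1.2). The phosphate carrier SLC25A3, the adenine nucleotide carriers SLC25A4 and SLC25A5, the citrate carrier SLC25A1 and the aspartate-glutamate carriers SLC25A12 and SLC25A13 were called in none of the 15 comparisons with 0 h.

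The promoters of 6 carriers are shown, all those that rose in at least 4 alleles at 24 h and had a response in A477T called below that in GRalpha. Each covers the 250 bases before and the 50 bases after the gene's start on its own strand (RefSeq, GRCh38.p14), and capitals mark the short receptor motif (AGAACA, or TGTTCT on the other strand).
SLC25A18 chr22:17563248-17563547 (+ strand): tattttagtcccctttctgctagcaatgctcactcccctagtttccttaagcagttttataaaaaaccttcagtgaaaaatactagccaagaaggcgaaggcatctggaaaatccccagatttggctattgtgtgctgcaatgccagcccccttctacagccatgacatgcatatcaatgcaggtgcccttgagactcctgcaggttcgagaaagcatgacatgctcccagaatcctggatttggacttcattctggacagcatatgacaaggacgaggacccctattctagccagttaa
SLC7A8 chr14:23155271-23155570 (- strand): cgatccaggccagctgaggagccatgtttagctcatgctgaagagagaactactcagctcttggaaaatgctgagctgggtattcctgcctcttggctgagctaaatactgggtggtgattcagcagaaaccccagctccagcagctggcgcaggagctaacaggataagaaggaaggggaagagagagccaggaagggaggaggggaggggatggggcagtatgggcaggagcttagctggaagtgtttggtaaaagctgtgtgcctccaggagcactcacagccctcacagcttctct
SLC39A11 chr17:73092639-73092938 (- strand): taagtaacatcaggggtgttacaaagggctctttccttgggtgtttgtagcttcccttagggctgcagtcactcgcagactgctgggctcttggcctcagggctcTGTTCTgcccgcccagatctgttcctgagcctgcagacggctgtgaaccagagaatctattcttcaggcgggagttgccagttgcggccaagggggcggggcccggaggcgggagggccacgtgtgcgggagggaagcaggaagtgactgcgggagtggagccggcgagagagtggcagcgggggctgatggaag
SLC12A8 chr3:125211350-125211649 (- strand): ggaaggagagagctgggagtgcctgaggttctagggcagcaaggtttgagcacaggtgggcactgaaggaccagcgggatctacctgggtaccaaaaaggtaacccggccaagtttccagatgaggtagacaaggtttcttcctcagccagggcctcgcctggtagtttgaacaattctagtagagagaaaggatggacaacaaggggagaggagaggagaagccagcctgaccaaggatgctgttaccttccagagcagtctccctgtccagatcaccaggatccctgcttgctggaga
SLC27A3 chr1:153775157-153775456 (+ strand): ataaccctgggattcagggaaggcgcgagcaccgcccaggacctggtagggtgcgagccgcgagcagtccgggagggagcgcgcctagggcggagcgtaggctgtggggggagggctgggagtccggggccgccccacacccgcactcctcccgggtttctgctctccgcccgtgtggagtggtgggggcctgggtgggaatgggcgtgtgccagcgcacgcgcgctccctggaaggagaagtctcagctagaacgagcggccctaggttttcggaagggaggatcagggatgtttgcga
SLC29A3 chr10:71319009-71319308 (+ strand): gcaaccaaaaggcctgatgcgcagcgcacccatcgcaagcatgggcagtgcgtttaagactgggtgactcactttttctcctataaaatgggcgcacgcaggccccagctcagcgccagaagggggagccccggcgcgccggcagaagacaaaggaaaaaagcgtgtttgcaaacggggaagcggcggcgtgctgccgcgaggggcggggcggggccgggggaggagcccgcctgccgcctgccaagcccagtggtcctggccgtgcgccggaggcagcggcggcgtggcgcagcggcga
Of the 203 members 172 had a promoter in the table. The short motif occurred in 14 of the 172 (8.14%) and in 14.8% of all 35116 promoters of that length. The 35116 were not limited to genes detected here, so the sets are not alike, and the difference was not tested. The full response element (GNACANNNTGTNC, whose reverse complement is the same) occurred in 1 of the 172, that of SLC38A11, a member called in none of the 15 comparisons, and in 0.39% of all promoters. The short motif of SLC39A11 starts at position -145 from the gene's start, and neither motif occurs in the other 5 windows shown.

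Among 38 members of families that carry amino acids, the light chain SLC7A8 (LAT2, an exchanger of neutral amino acids) rose in every allele at 24 h, while its relative SLC7A5 (LAT1, an exchanger of large neutral amino acids) and the cationic amino acid carrier SLC7A1 fell in every allele. SLC7A8 had values of 11.23, 11.65, 11.6 and 11.52 at 24 h in GRgamma cells, against 7.03, 6.45, 6.99 and 6.73 at 0 h. In A477T cells it had 11.05, 10.78, 10.86 and 10.86 at 24 h, against 8, 8.47, 9.86 and 8.35 at 0 h. In 30iiB cells it had 12.19, 12.64, 12.66 and 13.33 at 24 h, against 9.67, 8.05, 7.59 and 9.66 at 0 h. All 24 h arrays lay above all 0 h arrays in each of these alleles, with the narrowest gap in A477T, whose 0 h arrays were spread. In E773R cells it had 10.44, 10.83, 10.94 and 10.69 at 24 h, against 7.02, 6.61, 6.14 and 7.14 at 0 h. In GRalpha cells it had 12.4, 12.34, 12.21 and 12.2 at 24 h, against 7.98, 7.91, 6.73 and 6.96 at 0 h. These groups too stood apart. The fitted difference was 4.7 in GRgamma (adjusted p = 1.1e-15), 2.22 in A477T (adjusted p = 1.5e-05), 3.96 in 30iiB (adjusted p = 5.6e-13), 4 in E773R (adjusted p = 1.8e-12) and 4.89 in GRalpha (adjusted p = 1e-16). The response in A477T was smaller than in GRalpha by -2.68 (SE 0.56, adjusted p = 0.00044). At 4 h the member was called in GRalpha alone among the 5 alleles (1.72, against 1.23 in GRgamma, not called), and no difference from GRalpha was called at 4 h. The gene's other kept probes were detected on 15 and 13 arrays, and their 24 h differences in GRalpha were 2.09 and 0.81.

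SLC7A5 had values of 13.57, 13.2, 13.16 and 13.43 at 24 h in GRgamma cells, against 13.92, 14.41, 14.52 and 13.89 at 0 h. In E773R cells it had 13.54, 12.99, 12.99 and 13.79 at 24 h, against 14.49, 14.26, 14.4 and 14.35 at 0 h. In GRalpha cells it had 12.88, 12.97, 12.77 and 12.65 at 24 h, against 14.54, 14.66, 13.84 and 14.22 at 0 h. The 24 h arrays lay below the 0 h arrays in these 3 alleles without overlap and by the least in GRgamma. The differences were -0.84 in GRgamma, -1.19 in A477T, -1.71 in 30iiB, -1.05 in E773R and -1.5 in GRalpha, all called, but those of GRgamma (-0.70, adjusted p = 0.29) and E773R (-1.01, adjusted p = 0.22) were not called with scaling of the arrays by their medians. SLC7A1 fell by differences of -1.32 in GRgamma, -0.83 in A477T, -0.94 in 30iiB, -0.88 in E773R and -1.55 in GRalpha. Its call in E773R was lost without 0 h replicate 1 (-0.74), without 0 h replicate 3 (-0.77), without 24 h replicate 2 (-0.75) or without 24 h replicate 4 (-0.84). A pseudogene of SLC7A5, SLC7A5P2, is also a member and was called in none of the comparisons with 0 h, and probes for near-identical copies may share transcript.

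SLC7A11, the cystine and glutamate exchanger that feeds glutathione synthesis, fell in GRgamma (-1.57), 30iiB (-1.86) and GRalpha (-1.67) and had -0.84 in A477T and -0.45 in E773R, not called. SLC1A5, the glutamine carrier ASCT2, fell in GRgamma (-1.11) and GRalpha (-1.22), but the first call was lost without 0 h replicate 1 (-0.80), 0 h replicate 4 (-1.03) or 24 h replicate 4 (-0.97), and the second without 0 h replicate 1 (-0.94) or 24 h replicate 3 (-1.08). SLC1A3, a plasma membrane glutamate carrier, fell in A477T (-1.52), 30iiB (-2.03) and GRalpha (-1.06). SLC43A3, of an amino acid carrier family but known to move purine nucleobases, fell in GRgamma (-1.54), 30iiB (-1.07) and GRalpha (-1.71). A second SLC43A3 probe, also detected on all 80 arrays, had -0.42 in GRgamma, -0.40 in 30iiB and -0.55 in GRalpha. The glycine carrier SLC6A9 fell in 30iiB (-1.53) and GRalpha (-1.23). SLC3A2, the heavy chain that pairs with SLC7A5, SLC7A8 and SLC7A11, had differences of -1.04 in GRgamma, -1.16 in A477T, -0.74 in 30iiB, -0.74 in E773R and -1.11 in GRalpha, none called (adjusted p = 0.11 to 0.6), and its replicates were spread, with a median SD of 0.69 within a group. SLC38A2, a sodium-coupled neutral amino acid carrier, had -0.05 in GRgamma, 0.69 in A477T, 0.85 in 30iiB, 0.16 in E773R and 0.33 in GRalpha, none called.

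Other members of these families rose. The creatine carrier SLC6A8 rose in GRgamma (1.87), 30iiB (1.08) and GRalpha (1.19), the taurine carrier SLC6A6 in GRgamma (1.09) and A477T (1.12), and SLC43A2 (LAT4, a carrier of branched-chain amino acids) in GRgamma (1.66) and GRalpha (1.11). SLC7A2, another cationic amino acid carrier, rose in GRgamma (0.78), 30iiB (0.95) and GRalpha (0.64), opposite to SLC7A1. Over the 38 members at 24 h, 6 rose and 6 fell in GRgamma, 2 rose and 4 fell in A477T, 3 rose and 7 fell in 30iiB, 1 rose and 2 fell in E773R and 4 rose and 7 fell in GRalpha, with a median difference between -0.14 and 0.04. Among all genes 17.5% were called in GRgamma, 9.25% in A477T, 16.4% in 30iiB, 5.64% in E773R and 17.9% in GRalpha. The 38 include SLC7A5P2 and SLC7A6OS, which do not name a carrier.

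**Figure D2:**
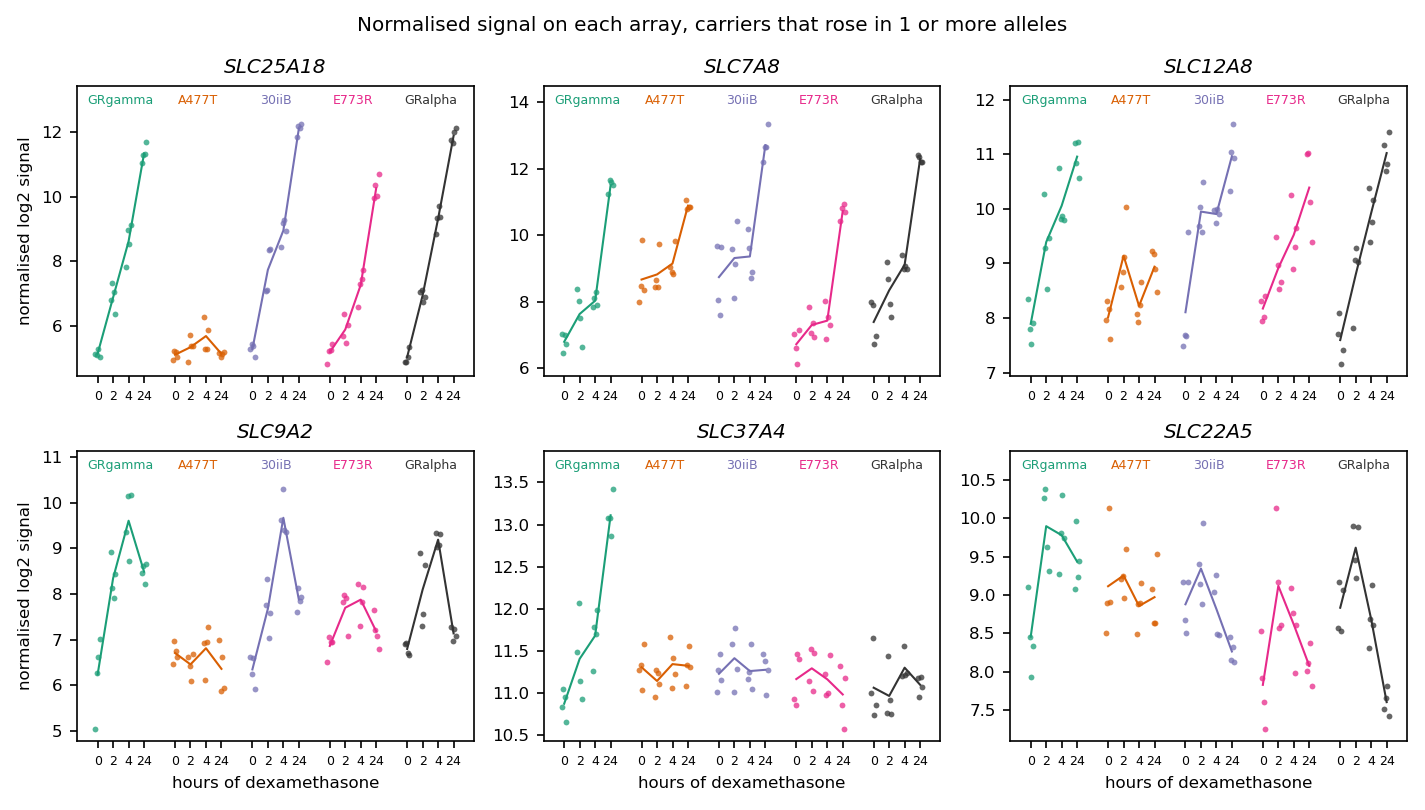
Normalised log2 signal on each of the 80 arrays (points) and group means (lines) of 6 carriers by allele and hours of dexamethasone, each panel with its own axis. SLC25A18 rose in 4 alleles and stayed between 4.87 and 6.27 in A477T. On all 4 GRgamma arrays at 24 h SLC37A4 was above 11.05, the value of the highest GRgamma array at 0 h.

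Of the 17 members of the sugar carrier families (SLC2, SLC5, SLC37 and SLC45), between 2 and 4 were called in an allele at 24 h. SLC37A4, the carrier of glucose 6-phosphate into the endoplasmic reticulum, was called only in GRgamma among the alleles, and its response there differed from that in GRalpha. Its values in GRgamma cells were 13.08, 13.08, 12.86 and 13.42 at 24 h, against 10.84, 11.05, 10.95 and 10.66 at 0 h. In GRalpha cells they were 11.18, 10.96, 11.19 and 11.07 at 24 h, against 11, 11.66, 10.74 and 10.86 at 0 h. All GRgamma arrays at 24 h lay above every array of the other groups, and the GRalpha groups overlapped. The difference in GRgamma was 2.24 (SE 0.2, adjusted p = 1.9e-14), and the other alleles had 0.02 in A477T, 0.05 in 30iiB, -0.18 in E773R and 0.04 in GRalpha. The GRgamma response exceeded that of GRalpha by 2.2 (95% interval 1.63 to 2.77, adjusted p = 3.6e-08). At 4 h SLC37A4 rose by 0.81 in GRgamma, where the difference from GRalpha was not called. SLC37A1, of the same family, also rose in GRgamma at 24 h (0.97), and its difference from GRalpha was not called.

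The glucose carrier SLC2A1 (GLUT1) went opposite ways in a pair of alleles at 24 h. Its values in GRgamma cells were 12.57, 12.38, 12.25 and 12.55 at 24 h, against 11.95, 11.96, 11.88 and 11.58 at 0 h. In A477T cells they were 11.14, 11.32, 11.69 and 11.06 at 24 h, against 12.66, 12.84, 12.82 and 12.83 at 0 h. The values in GRalpha cells were 12.26, 11.89, 12.48 and 12.32 at 24 h, against 12.72, 13.28, 11.9 and 12.18 at 0 h. The groups stood apart in GRgamma, where it rose by 0.6, and in A477T, where it fell (-1.49, adjusted p = 2.8e-08), and overlapped in GRalpha (-0.28, not called). The rise in GRgamma was not called without 0 h replicate 4 (0.51), 24 h replicate 1 (0.55) or 24 h replicate 4 (0.56), with the slide as a block (0.45) or with median scaling (0.89, adjusted p = 0.12). The response of A477T was below that of GRalpha by -1.21 (adjusted p = 0.0028). SLC2A3 (GLUT3, a glucose carrier of neurons and other cells) and SLC2A14 (GLUT14) are near-identical copies, so signal of 1 may be read by the probe of the other and each value is uncertain. SLC2A3 had values of 12.48, 11.86, 12.17 and 12.68 at 24 h in A477T cells, against 13.09, 12.46, 13.33 and 13.19 at 0 h. In GRalpha cells it had 13.65, 13.56, 13.41 and 13.2 at 24 h, against 12.61, 12.94, 11.11 and 11.63 at 0 h. In GRalpha all 24 h arrays lay above the 0 h arrays, and in A477T the groups overlapped. The 24 h differences of SLC2A3 were 1.25 in GRgamma, -0.72 in A477T, 0.78 in 30iiB, 1.02 in E773R and 1.38 in GRalpha, called in GRgamma, E773R and GRalpha, and the call in E773R was lost without any 1 of 7 arrays (0.83 to 1.12). Those of SLC2A14 were 0.93 in GRgamma, 1.14 in A477T, 3.46 in 30iiB, 2.42 in E773R and 3 in GRalpha, called in 30iiB, E773R and GRalpha. At 2 h SLC2A3 rose in GRalpha (1.53, not called without 2 h replicate 1, 1.17) and fell in A477T (-1.19, not called without any 1 of 6 arrays, -1.21 to -1.09). The response of A477T was below that of GRalpha at 4 h by -2.35 for SLC2A3 (adjusted p = 0.00053) and by -2.39 for SLC2A14 (adjusted p = 0.045, lost when any 1 of 13 arrays was left out, with -1.80 without A477T 4 h replicate 1 the smallest), and at 24 h by -2.1 for SLC2A3. SLC2A8, a glucose carrier of inner membranes, fell in 30iiB (-0.99) and GRalpha (-0.75, not called without 0 h replicate 2, -0.61, or 24 h replicate 2, -0.64), and SLC5A6, a carrier of biotin and pantothenate, in A477T (-0.53), 30iiB (-0.46) and GRalpha (-0.56, not called without 0 h replicate 2, -0.50). Of the 17, 4 rose and 0 fell in GRgamma, 0 rose and 2 fell in A477T, 1 rose and 2 fell in 30iiB, 2 rose and 0 fell in E773R and 2 rose and 2 fell in GRalpha at 24 h. Among all genes 17.5% were called in GRgamma, 9.25% in A477T, 16.4% in 30iiB, 5.64% in E773R and 17.9% in GRalpha. The 17 include SLC2A4RG, which does not name a carrier.

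Of 25 members of the ion exchange families, SLC12A8, of the cation-chloride cotransporter family, and SLC9A2, a sodium-proton exchanger, had the largest called changes. SLC12A8 had values of 9.23, 9.17, 8.89 and 8.47 at 24 h in A477T cells, against 7.96, 8.32, 8.16 and 7.61 at 0 h. In E773R cells it had 11.01, 11.03, 10.12 and 9.4 at 24 h, against 8.32, 7.94, 8.02 and 8.41 at 0 h. In GRalpha cells it had 11.17, 10.7, 10.82 and 11.4 at 24 h, against 7.71, 8.09, 7.16 and 7.42 at 0 h. The 24 h arrays lay above the 0 h arrays in all 3 alleles, by the least in A477T. At 2 h, 4 h and 24 h the difference was 1.5, 2.16 and 3.07 in GRgamma, 1.13, 0.21 and 0.93 in A477T (none called), 1.84, 1.8 and 2.86 in 30iiB, 0.74 (not called), 1.35 and 2.22 in E773R, and 1.2 (not called), 2.33 and 3.43 in GRalpha. The call in E773R at 4 h was lost without any 1 of 5 arrays (1.11 to 1.40), and that in GRgamma at 2 h without 2 h replicate 1 (1.2). The response of A477T was below that of GRalpha by -2.12 at 4 h (adjusted p = 0.0077) and -2.5 at 24 h (adjusted p = 0.00024).

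SLC9A2 was called at 4 h in GRgamma, 30iiB and GRalpha, with a lower mean at 24 h in each of them. In GRgamma cells its values were 5.05, 6.27, 6.61 and 7.02 at 0 h, 8.92, 8.13, 7.91 and 8.43 at 2 h, 9.37, 10.15, 8.73 and 10.18 at 4 h and 8.47, 8.62, 8.21 and 8.66 at 24 h. In GRalpha cells they were 6.91, 6.92, 6.7 and 6.66 at 0 h, 8.89, 7.29, 7.57 and 8.64 at 2 h, 9.33, 9.04, 9.08 and 9.32 at 4 h and 7.28, 6.96, 7.24 and 7.07 at 24 h. All GRgamma arrays at 24 h still lay above its 0 h arrays. In GRalpha the 24 h arrays lay above the 0 h arrays too, by little. In A477T cells they were 6.92, 6.11, 6.95 and 7.27 at 4 h, against 6.47, 6.97, 6.76 and 6.63 at 0 h, which overlap. At 4 h the difference was 3.37 in GRgamma, 0.11 in A477T, 3.33 in 30iiB, 1.02 in E773R and 2.39 in GRalpha, called in GRgamma, 30iiB and GRalpha, and at 24 h it was 2.26 in GRgamma, -0.34 in A477T, 1.53 in 30iiB, 0.32 in E773R and 0.34 in GRalpha, called in GRgamma and 30iiB. At 2 h it rose in GRgamma (2.12), 30iiB (1.33, not called without 2 h replicate 2, 1.11) and GRalpha (1.3, not called without 2 h replicate 1, 1.03, or replicate 4, 1.12). The response of A477T was below that of GRalpha at 4 h by -2.29 (adjusted p = 0.00041). At 24 h the response of GRgamma was above that of GRalpha by 1.92 (adjusted p = 0.0043), which median scaling left uncalled (1.54, adjusted p = 0.056).

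The sulphate and anion exchanger SLC26A11 rose at 24 h in GRgamma (2.47), 30iiB (1.49) and GRalpha (1.83), and SLC26A9, a chloride channel of the same family, in 30iiB (1.3) and GRalpha (1.3). The sulphate carrier SLC26A2 had 0.33 in GRgamma, 0.14 in A477T, -0.29 in 30iiB, 0.12 in E773R and 0.02 in GRalpha, none called. SLC4A8, a sodium-coupled bicarbonate carrier, rose in A477T (1.28, not called without 0 h replicate 1, 0.99, or 24 h replicate 4, 1.16), and SLC8A2, a sodium-calcium exchanger, fell there (-1.27). SLC8A3, its relative, fell in GRalpha (-0.78, not called without 0 h replicate 4, -0.64, or 24 h replicate 4, -0.65). The potassium-chloride cotransporter SLC12A4 rose in GRgamma (0.54) and A477T (0.61, not called without 0 h replicate 1, 0.51, or 24 h replicate 2, 0.53). SLC12A2, the sodium-potassium-chloride cotransporter NKCC1, could not be followed well: its median SD within a group was 1.15, its values in GRalpha cells were 7.86, 7.41, 6.83 and 8.42 at 24 h and 8.84, 6.12, 8.02 and 7.98 at 0 h, and it was called in no comparison. Of the 25, 6 rose and 0 fell in GRgamma, 2 rose and 1 fell in A477T, 4 rose and 0 fell in 30iiB, 1 rose and 0 fell in E773R and 3 rose and 1 fell in GRalpha at 24 h. Among all genes 17.5% were called in GRgamma, 9.25% in A477T, 16.4% in 30iiB, 5.64% in E773R and 17.9% in GRalpha. The 25 include SLC4A1AP, which does not name a carrier.

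SLC22A5, which imports carnitine, rose in GRgamma and fell in GRalpha at 24 h. In GRgamma cells its values were 9.1, 8.46, 7.93 and 8.34 at 0 h, 10.27, 10.38, 9.62 and 9.32 at 2 h, 9.27, 9.81, 10.3 and 9.74 at 4 h and 9.08, 9.97, 9.24 and 9.45 at 24 h. The values in GRalpha cells were 8.57, 9.17, 8.53 and 9.07 at 0 h, 9.9, 9.46, 9.22 and 9.89 at 2 h, 8.31, 8.69, 9.13 and 8.61 at 4 h and 7.51, 7.66, 7.82 and 7.43 at 24 h. The GRalpha arrays at 24 h lay below every earlier array of that allele. The GRgamma arrays at 24 h overlapped those at 0 h by 1 array, and all GRgamma arrays at 24 h lay above all GRalpha arrays at 24 h. The differences at 24 h were 0.97 in GRgamma (adjusted p = 0.014) and -1.23 in GRalpha (adjusted p = 0.0012), and the GRgamma response exceeded that of GRalpha by 2.2 (95% interval 1.36 to 3.05, adjusted p = 0.00029). The rise in GRgamma alone was not called without 0 h replicate 3 (0.80) or 24 h replicate 2 (0.79). At 2 h it rose in GRgamma (1.44) and E773R (1.29, lost without any 1 of 5 arrays, 0.95 to 1.32), and at 4 h in GRgamma (1.32). SLC22A4, its neighbour in the family and a carrier of ergothioneine, fell in 30iiB (-1.38) and GRalpha (-1.55), and had -0.8 in GRgamma, not called.

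SLC27A3, of the fatty acid transport and acyl-CoA synthetase family, rose in GRgamma (1.58), 30iiB (1.86), E773R (0.97) and GRalpha (1.89), and had 0.65 in A477T, not called. Its relative SLC27A1 fell in A477T (-1.33) and 30iiB (-1.16), and SLC27A2 in GRgamma (-1.02) and 30iiB (-0.89). The choline carrier SLC44A2 rose in 30iiB (1.12) and GRalpha (0.79, not called without 0 h replicate 3, 0.62), and SLC44A3 in A477T (1.05, not called with median scaling, 1.01, adjusted p = 0.099) and 30iiB (0.86). The A477T response was below that of GRalpha for SLC27A3 (-1.24, adjusted p = 0.0068) and SLC44A2 (-1.14, adjusted p = 0.032). Of the 20 members of these families, 4 rose and 1 fell in GRgamma, 1 rose and 1 fell in A477T, 3 rose and 3 fell in 30iiB, 1 rose and 0 fell in E773R and 3 rose and 2 fell in GRalpha at 24 h. Among all genes 17.5% were called in GRgamma, 9.25% in A477T, 16.4% in 30iiB, 5.64% in E773R and 17.9% in GRalpha.

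SLC16A9, of the monocarboxylate carrier family and a carrier of carnitine, fell in every allele at 24 h. In A477T cells its values were 7.28, 6.81, 7.16 and 6.89 at 24 h, against 9.08, 9.37, 8.73 and 8.71 at 0 h. In E773R cells they were 5.06, 5.89, 6.17 and 6.43 at 24 h, against 9.74, 9.17, 8.5 and 8.32 at 0 h. In GRalpha cells they were 6.02, 6.34, 5.9 and 6.98 at 24 h, against 9.26, 7.4, 8.03 and 8.71 at 0 h. In these and the other alleles, all 24 h arrays lay below all 0 h arrays. The differences were -2.85 in GRgamma, -1.94 in A477T, -2.49 in 30iiB, -3.04 in E773R and -2.04 in GRalpha. In GRgamma and 30iiB the probe was detected on 0 of 4 arrays at 24 h and on 4 of 4 at 0 h, so it was at least 5.09-fold lower in GRgamma and at least 4.02-fold lower in 30iiB. Its relative SLC16A10, a carrier of aromatic amino acids, rose in GRgamma (0.81) and 30iiB (0.86), and SLC16A7, the pyruvate carrier MCT2 and the last of the 3 members of that family, was called in no comparison with 0 h. SLC20A1, a sodium-phosphate cotransporter and retrovirus receptor, had values of 13.28, 13.07, 14.03 and 13.29 at 24 h in E773R cells, against 14.81, 13.99, 13.94 and 13.73 at 0 h. In GRalpha cells it had 13.22, 13.12, 12.83 and 12.62 at 24 h, against 14.57, 14.67, 14.3 and 15.07 at 0 h. The groups stood apart in GRalpha and overlapped in E773R. It fell in GRgamma (-1.48), A477T (-1.15), 30iiB (-1.3) and GRalpha (-1.7), and E773R had -0.7, not called. Its relative SLC20A2 fell in GRgamma (-0.93), 30iiB (-1.14), E773R (-1.59) and GRalpha (-1.5). The dicarboxylate carrier SLC13A3 rose in GRgamma (1.23).

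Among 23 members of the nucleoside and nucleotide sugar carrier families, SLC35F3, which is known to carry thiamine, fell in every allele at 24 h. In GRgamma cells its values were 4.98, 5.31, 4.79 and 5 at 24 h, against 8.8, 7.81, 7.11 and 7.13 at 0 h. In E773R cells they were 6.87, 5.86, 5.21 and 7.26 at 24 h, against 7.45, 7.78, 7.41 and 7.13 at 0 h. The values in GRalpha cells were 5.29, 5.77, 5.14 and 4.92 at 24 h, against 7.48, 7.82, 7.77 and 7.37 at 0 h. All 24 h arrays lay below all 0 h arrays in GRgamma and GRalpha, and in E773R 1 array at 24 h lay above 1 at 0 h. The differences were -2.69 in GRgamma, -2.23 in A477T, -2.36 in 30iiB, -1.14 in E773R and -2.33 in GRalpha, and where 0 of 4 arrays at 24 h were detected it was at least 3.45-fold lower in GRgamma, 3.41-fold in 30iiB and 3.36-fold in GRalpha. Its other probe, detected on 67 arrays, had -1.06 in GRgamma, -1.61 in A477T, -1.85 in 30iiB, -0.79 in E773R and -1.51 in GRalpha. SLC35E4, a member of the family with no known substrate, fell in A477T at 2 h, 4 h and 24 h (-1.64, -1.89 and -2.04), in GRgamma at 24 h (-1.34), and in GRalpha at 4 h and 24 h (-1.34 and -1.45), the 4 h call being lost without any 1 of 5 arrays (-1.35 to -1.11). SLC35D2, a Golgi carrier of nucleotide sugars, rose in GRgamma (1.04), 30iiB (0.96), E773R (1.05) and GRalpha (1.07), and the GDP-fucose carrier SLC35C1 in GRgamma (0.71), 30iiB (0.63) and GRalpha (0.55). SLC29A3, a lysosomal nucleoside carrier, rose in GRgamma (1.64), 30iiB (1.37), E773R (0.77) and GRalpha (1.63), and its response in A477T was below that in GRalpha by -1.4 (adjusted p = 0.0022). SLC35F1 rose in GRgamma (1.7), A477T (1.41) and 30iiB (1.81) and had 0.8 in GRalpha, not called. Of the 23, 5 rose and 2 fell in GRgamma, 1 rose and 2 fell in A477T, 4 rose and 1 fell in 30iiB, 2 rose and 1 fell in E773R and 4 rose and 2 fell in GRalpha at 24 h. Among all genes 17.5% were called in GRgamma, 9.25% in A477T, 16.4% in 30iiB, 5.64% in E773R and 17.9% in GRalpha.

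**Figure D3:**
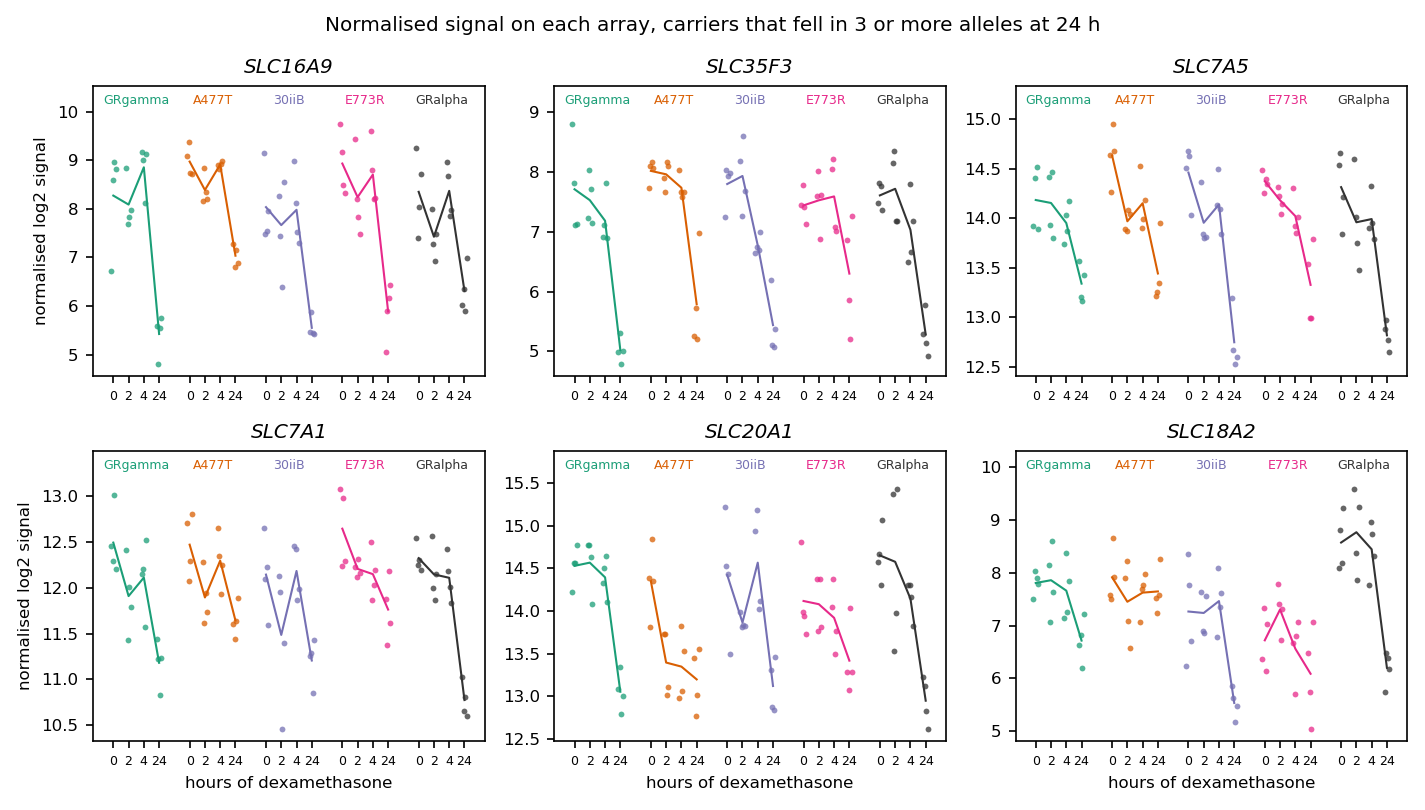
Normalised log2 signal on each of the 80 arrays (points) and group means (lines) of 6 carriers by allele and hours of dexamethasone, each panel with its own axis. SLC16A9, SLC35F3, SLC7A5 and SLC7A1 fell in all 5 alleles at 24 h, SLC20A1 in 4 and SLC18A2 in 3.

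Of 14 zinc carriers, SLC39A11, of the family that imports zinc into the cytosol, rose in 4 alleles. In A477T cells its values were 10.29, 9.96, 10.3 and 10.04 at 24 h, against 9.99, 10.26, 10.44 and 10.23 at 0 h. In GRalpha cells they were 12.07, 11.98, 12.29 and 12.22 at 24 h, against 9.98, 10.41, 10.14 and 10.41 at 0 h. The groups stood apart in GRalpha and overlapped in A477T. The differences were 1.3 in GRgamma, -0.08 in A477T, 1.22 in 30iiB, 1.19 in E773R and 1.91 in GRalpha, of which that of E773R was not called with median scaling (1.25, adjusted p = 0.073), and the A477T response was below that of GRalpha by -1.99 (adjusted p = 8.8e-05). SLC39A14, a zinc and iron importer, rose at 4 h in 30iiB (1.25), and SLC30A3, a zinc exporter into vesicles, fell at 24 h in GRgamma (-0.84), 30iiB (-0.82) and GRalpha (-0.71, not called without 0 h replicate 1, -0.50). SLC30A1, the zinc exporter of the plasma membrane, had -0.1 in GRgamma, -0.06 in A477T, 0.33 in 30iiB, -0.04 in E773R and -0.35 in GRalpha, none called. Of the 6 carriers of other metals, SLC31A2, a relative of the copper importer, rose in GRalpha (1.05, not called with median scaling, 1.02, adjusted p = 0.064), and the A477T response was below it by -1.47 (adjusted p = 0.011). The iron exporter SLC40A1 and the iron importer SLC11A2 were called in no comparison with 0 h. The thiamine carrier SLC19A2 rose at 2 h in GRgamma (1.48) and had 0.92 in GRgamma, -0.17 in A477T, 0.59 in 30iiB, 0.23 in E773R and 0.64 in GRalpha at 24 h, none called, and the heme carrier SLC48A1 fell at 24 h in GRalpha (-0.96, lost without any 1 of 3 arrays, -0.89 to -0.79).

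SLC18A2, the vesicular monoamine carrier of neurons and mast cells, was detected on 71 arrays. In A477T cells its values were 7.53, 7.23, 7.57 and 8.25 at 24 h, against 7.58, 7.5, 8.65 and 7.92 at 0 h. In 30iiB cells they were 5.85, 5.63, 5.18 and 5.48 at 24 h, against 6.24, 8.35, 7.77 and 6.7 at 0 h. In GRalpha cells they were 5.75, 6.48, 6.39 and 6.18 at 24 h, against 8.08, 8.8, 8.18 and 9.22 at 0 h. The groups stood apart in 30iiB and GRalpha and overlapped in A477T. It fell in GRgamma (-1.09), 30iiB (-1.73) and GRalpha (-2.37), and the A477T response was above that of GRalpha by 2.11 (95% interval 0.99 to 3.22, adjusted p = 0.01). SLC18B1, a vesicular polyamine carrier, rose at 24 h in GRgamma (1.82), 30iiB (0.84), E773R (0.66) and GRalpha (0.64, not called without 0 h replicate 3, 0.50, or with median scaling, 0.64, adjusted p = 0.19), and in GRgamma also at 2 h (0.64) and 4 h (0.87). The GRgamma response at 24 h exceeded that of GRalpha by 1.18 (adjusted p = 0.0017). SLC61A1, a molybdate carrier, rose in GRgamma (0.86) and GRalpha (0.64, lost without any 1 of 4 arrays, 0.48 to 0.61), and SLC67A1 in GRalpha (1, lost without any 1 of 4 arrays, 0.77 to 0.94). At 2 h and 4 h 30iiB had calls that ended without 1 array: at 2 h SLC35G2 (-1.13, lost without any 1 of 4 arrays, -1.12 to -0.81), and at 4 h SLC15A3 (-0.84, -0.88 to -0.69), SLC1A3 (-0.97, -1 to -0.83) and SLC25A37 (-1, -0.96 to -0.89), each lost without any 1 of 5 or 6 arrays. SLC25A25, an ATP-magnesium and phosphate carrier, fell in 30iiB at 2 h (-1.12). Its other probe on all 80 arrays had -0.59 there, and a pair of dim ones had 0.58 and 0.07, so the probes of this gene disagree.

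**Figure D4:**
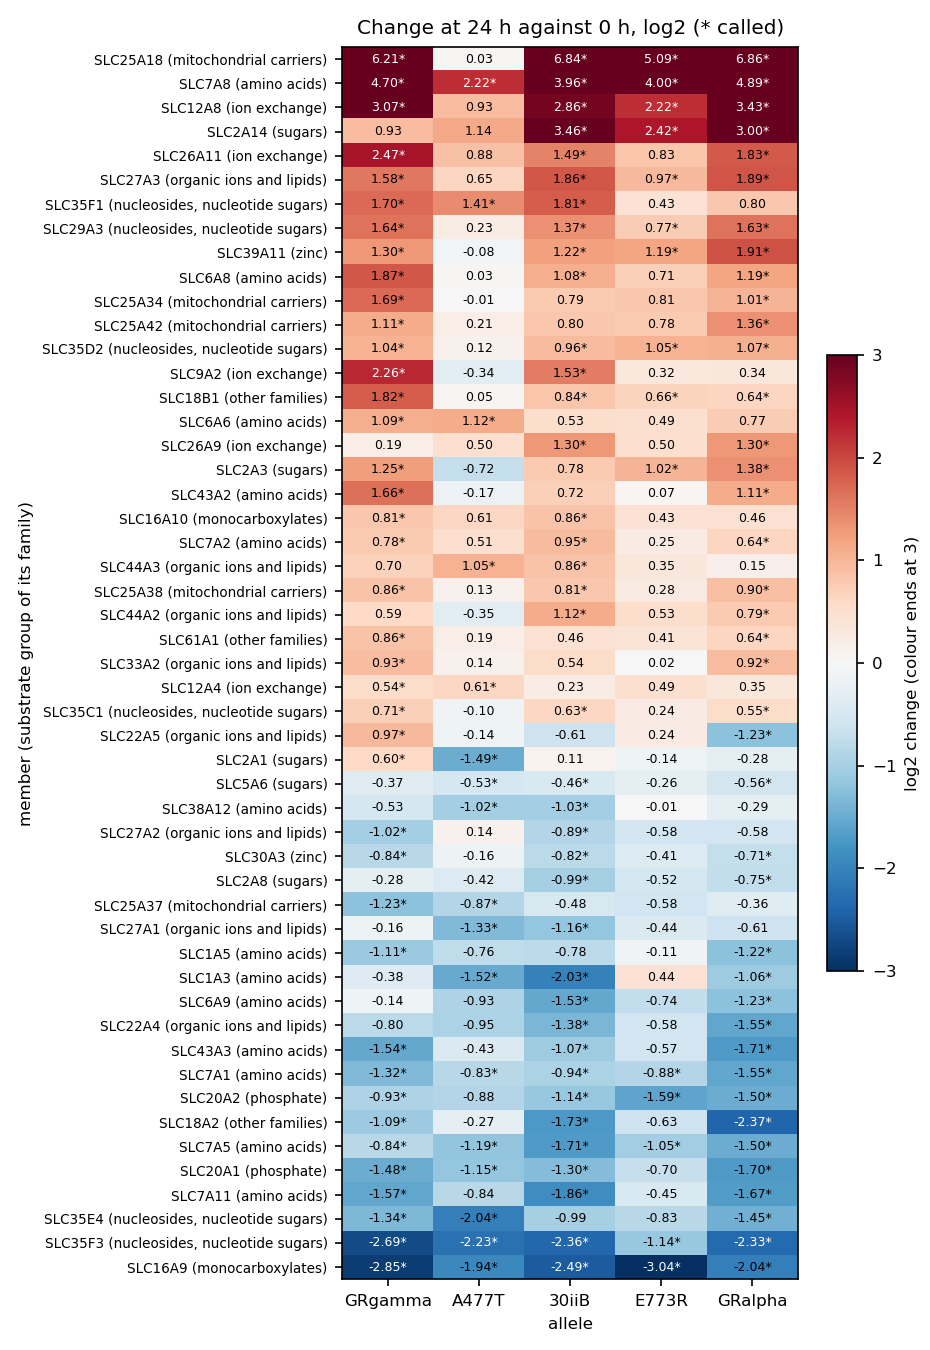
Log2 change at 24 h against 0 h of the members called in at least 2 alleles, by allele (columns, 4 arrays at each time), with the substrate group of the member's family in brackets, an asterisk on called changes and colours that end at 3. SLC25A18 ranged from 0.03 in A477T to 6.86 in GRalpha, and SLC16A9, at the bottom, was called lower in every allele.

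Without hormone, compared with GRalpha at 0 h, the members called were 0 of the 203 in GRgamma (0% against 0.486% of all genes), 5 of the 203 in A477T (2.46% against 2.34% of all genes), 2 of the 203 in 30iiB (0.985% against 1.55% of all genes) and 1 of the 203 in E773R (0.493% against 0.59% of all genes). With the authors' deposited values the counts were 2 in GRgamma, 11 in A477T, 19 in 30iiB (10 higher and 9 lower) and 8 in E773R, and with the slide as a block 30iiB had 5. For GRgamma limma called 0 members, and 14 had an unadjusted p under 0.05. In A477T cells SLC15A3, a lysosomal carrier of histidine and small peptides, had values of 8.84, 8.69, 8.83 and 8.89, against 7.05, 6.67, 6.92 and 6.7 in GRalpha cells, without overlap (log2 difference 1.98, SE 0.25, adjusted p = 4.2e-08). SLC8A2, the sodium-calcium exchanger, had 7.4, 7.73, 7.92 and 7.21 in A477T cells, against 9.71, 9.2, 9.97 and 10.5 in GRalpha cells, also without overlap (log2 difference -2.28, SE 0.38, adjusted p = 2.5e-05). Both stayed apart from GRalpha at 2, 4 and 24 h: every A477T array of SLC15A3 lay above every GRalpha array, and every one of SLC8A2 lay below. SLC2A8 (0.88, not called without GRalpha 0 h replicate 3, 0.77) and SLC30A3 (0.95, not called without GRalpha 0 h replicate 4, 0.83) were also higher in A477T, and SLC7A10, an exchanger of small neutral amino acids, was lower (-1.35, lost without any 1 of 4 arrays, -1.33 to -1.21). In 30iiB cells SLC1A3 was higher (log2 difference 1.77, SE 0.3, adjusted p = 4.4e-05), as was SLC27A2 (0.97, lost without any 1 of 6 arrays, 0.77 to 1.01). In E773R cells SLC18A2 was lower (-1.85, not called without E773R 0 h replicate 3, -1.66, or GRalpha 0 h replicate 4, -1.64). Whether these differences belong to the receptor or to the line cannot be told apart.

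The response to hormone was compared between each variant and GRalpha as the difference of their changes from 0 h, and these comparisons share the GRalpha arrays. At 4 h the members whose response lay above or below that of GRalpha were 0 above and 0 below in GRgamma (0% of the members against 0.359% of all genes), 0 above and 5 below in A477T (2.46% of the members against 1.42% of all genes), 0 above and 0 below in 30iiB (0% of the members against 0.0478% of all genes) and 0 above and 1 below in E773R (0.493% of the members against 0.47% of all genes). At 24 h they were 4 above and 0 below in GRgamma (1.97% of the members against 1.94% of all genes), 1 above and 10 below in A477T (5.42% of the members against 5.04% of all genes), 0 above and 0 below in 30iiB (0% of the members against 0.343% of all genes) and 2 above and 1 below in E773R (1.48% of the members against 1.75% of all genes). For 30iiB limma called 0 members at either time, with 7 at an unadjusted p under 0.05 at 4 h and 7 at 24 h, and for GRgamma 0 at 4 h, with 8 at an unadjusted p under 0.05. In A477T, 15 of the 16 called differences at 4 h and 24 h lay below GRalpha, and the exception was SLC18A2, a member that fell in GRalpha. SLC12A8, SLC25A18 and SLC2A3 are counted there at both times. No share of all genes by direction stands beside this count. With the authors' values 5 lay above and 15 below at 24 h. In E773R, apart from SLC25A18, the glutamate carrier SLC1A3 (above GRalpha by 1.5, adjusted p = 0.045) and the carnitine carrier SLC22A5 (above by 1.47, adjusted p = 0.049) differed at 24 h. The first call was lost when any 1 of 13 arrays was left out (1.14 to 1.56), the second for any 1 of 12 (1.29 to 1.55), so that both lie at the threshold. Many effects in 1 allele and not in another were not called as differences, so for example the 24 h changes of SLC7A11, -0.45 in E773R and -1.67 in GRalpha, differed by 1.22 (95% interval 0.08 to 2.36, adjusted p = 0.59).

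**Figure D5:**
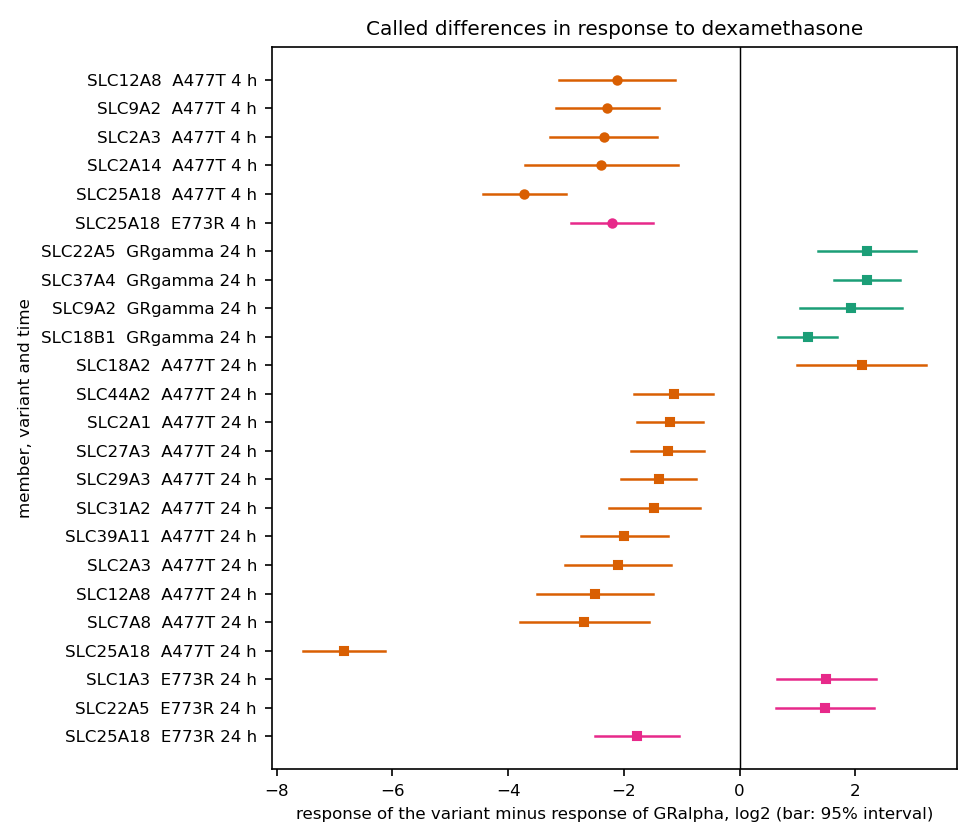
The 24 called differences in response, each variant minus GRalpha, on a log2 scale with 95% intervals (circles 4 h, squares 24 h, colours by variant). SLC25A18 in A477T at 24 h lay farthest from 0, at -6.84, a fitted size that rests on A477T values at background, and the 4 GRgamma differences all lay above 0.

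Genes that work with carriers were counted in lists of their roles, which were drawn up with earlier results of these data known. Of 11 regulators of carrier genes tested, TXNIP, which limits glucose uptake by SLC2 carriers, rose at 4 h and 24 h in every allele (4.79 in GRgamma, 1.45 in A477T, 3.53 in 30iiB, 2.89 in E773R and 3.94 in GRalpha at 24 h). At 24 h 2 of the 11 rose and 0 fell in GRgamma, 2 rose and 1 fell in A477T, 3 rose and 2 fell in 30iiB, 3 rose and 0 fell in E773R and 3 rose and 2 fell in GRalpha. Among all genes 17.5% were called in GRgamma, 9.25% in A477T, 16.4% in 30iiB, 5.64% in E773R and 17.9% in GRalpha. PPARGC1A, a coactivator of mitochondrial genes, had 2.42 in GRgamma, 1.65 in A477T, 1.76 in 30iiB, 1.68 in E773R and 1.38 in GRalpha at 24 h. Besides TXNIP and PPARGC1A, the regulators called at 24 h in 30iiB and GRalpha were MYC, EPAS1 and SREBF1, of which 2 fell in each. At 24 h SREBF1 fell in A477T and EPAS1 rose in E773R, and at 4 h NFE2L2 fell in GRgamma. Of 5 sodium pump subunits tested, ATP1B1 fell in GRgamma, 30iiB and GRalpha (-1.15, -0.86 and -1.25), FXYD6 fell in GRalpha (-0.99), and none rose at 24 h. Of 9 partners and scaffolds, STK39, a kinase that acts on SLC12 cotransporters, and NEDD4L, a ubiquitin ligase of membrane proteins, were called in 4 alleles at 24 h: STK39 had 1.05 in GRgamma, -0.21 in A477T, 0.75 in 30iiB, 0.78 in E773R and 0.87 in GRalpha, and NEDD4L -1.23 in GRgamma, 0.43 in A477T, -1.38 in 30iiB, -1.26 in E773R and -1.46 in GRalpha. OXSR1, a kinase related to STK39, rose in GRgamma (0.62). Of 5 organic anion carriers (SLCO), SLCO4A1 rose at 4 h and 24 h in GRgamma, A477T, 30iiB and GRalpha (2.43 in GRgamma, 3.77 in A477T, 2.23 in 30iiB, 0.52 in E773R and 2.53 in GRalpha at 24 h). At 24 h SLCO5A1 also rose in A477T (2.07), 30iiB (1.19) and GRalpha (1.58), and SLCO1A2 in GRgamma (0.8) and 30iiB (1.06). SLCO4C1 fell in GRgamma (-2.15), 30iiB (-1.6) and GRalpha (-2.28), and SLCO3A1 in GRalpha (-0.96). The mitochondrial pyruvate carriers and voltage-dependent anion channels (5 tested) held no call at 4 h or 24 h.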

How the data were processed

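Bead array signals of 80 arrays were used as the deposited intensity of each probe, not scaled between arrays per the file headers, with the deposited detection p-value of each probe on each array. No source used here names the scanner software. The authors' deposited log2 values (21241 probes) served as an alternative. Each of their columns correlated best with its own array (80 of 80, lowest correlation 0.938), with column medians between 7.89 and 7.97, and their normalisation and filter are unknown.

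Signals were background-corrected (normexp with the detection p-values, offset 16), quantile-normalised and log2-transformed by the neqc function (limma 3.58.1, R 4.3.3). Of 25204 probes, 19291 had 1 symbol in the platform annotation, 15392 of these were detected (p under 0.05) on at least 4 arrays, and the brightest probe of each of 12547 genes was tested. A mean was fitted for each of the 20 groups over all 80 arrays with lmFit and eBayes (60 residual degrees of freedom). Tests were two-sided, with Benjamini-Hochberg adjustment over all genes of a comparison, and a gene was called at an adjusted p under 0.05.

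The members and lists were chosen with earlier results of these data known. The 59 named carriers were 18 with a well known role (14 are members), those with the largest called changes whose groups did not overlap (5 each way at 24 h, 3 each way at 2 h and 4 h), the largest called differences between alleles (3 each way), up to 4 called members of each role, and those called in opposite directions or in all 5 alleles at 4 h. Carriers outside this rule were named after their values were seen. Alternatives were the slide or the replicate number as a block, median scaling, no background correction, an offset of 50, other detection filters, the authors' values, other probes of the gene, only the compared groups, leaving out each array, and, chosen after seeing the data, leaving out the 2 least correlated arrays. The number of arrays limits the precision.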

Additional observations from a re-analysis of the deposited data

Results flagged for a closer look

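For 22 of 332 sets of 4 values of a named carrier in a group (6.63%), 1 replicate stood apart from the other 3 in log2 signal by Dixon's criterion, against about 1 set in 20 that chance gives. Above the others lay SLC2A3 in 30iiB 0 h replicate 1 (13.45, the others 12.77 to 12.84), SLC12A2 in A477T 0 h replicate 1 (7.55, the others 5.12 to 5.38), SLC12A8 in 30iiB 0 h replicate 4 (9.58, the others 7.49 to 7.68), SLC16A9 in 30iiB 24 h replicate 2 (5.87, the others 5.43 to 5.46), SLC35F1 in A477T 0 h replicate 3 (7.51, the others 6.62 to 6.72), SLC25A37 in 30iiB 4 h replicate 4 (9.85, the others 9.29 to 9.32), SLC12A8 in GRgamma 4 h replicate 1 (10.74, the others 9.8 to 9.87), SLC30A3 in A477T 0 h replicate 4 (10.86, the others 10.51 to 10.53), SLC18B1 in GRalpha 24 h replicate 1 (11.27, the others 11.08 to 11.09), SLC25A42 in GRalpha 24 h replicate 3 (10.26, the others 9.71 to 9.79) and SLC25A42 in GRalpha 0 h replicate 2 (9.51, the others 8.09 to 8.27). Below the others lay SLC2A1 in A477T 0 h replicate 1 (12.66, the others 12.82 to 12.84), SLC12A2 in E773R 0 h replicate 4 (5.85, the others 8.61 to 8.79), SLC30A1 in E773R 24 h replicate 4 (9.94, the others 10.7 to 10.82), SLC19A2 in GRgamma 0 h replicate 1 (5.4, the others 6.3 to 6.34), SLC2A3 in GRgamma 0 h replicate 4 (11.27, the others 11.86 to 11.97), SLC39A14 in GRgamma 24 h replicate 4 (11.11, the others 11.25 to 11.26), SLC35F3 in 30iiB 0 h replicate 1 (7.24, the others 7.93 to 8.04), SLC12A4 in A477T 0 h replicate 1 (8.64, the others 9 to 9.07), SLC4A8 in A477T 0 h replicate 1 (5.88, the others 7.02 to 7.12), SLC16A9 in GRgamma 0 h replicate 1 (6.71, the others 8.59 to 8.97) and SLC35G2 in 30iiB 2 h replicate 3 (6.69, the others 7.81 to 8.04). A477T 0 h replicate 1 stood apart for 4 carriers.

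The response of a variant differed from that of GRalpha, by the test of the difference itself, in 24 cases, all values on the log2 scale and variant minus GRalpha. In GRgamma at 24 h they were SLC18B1 (1.18), SLC22A5 (2.2), SLC37A4 (2.2) and SLC9A2 (1.92). In A477T at 4 h they were SLC12A8 (-2.12), SLC25A18 (-3.72), SLC2A14 (-2.39), SLC2A3 (-2.35) and SLC9A2 (-2.29). In A477T at 24 h they were SLC12A8 (-2.5), SLC18A2 (2.11), SLC25A18 (-6.84), SLC27A3 (-1.24), SLC29A3 (-1.4), SLC2A1 (-1.21), SLC2A3 (-2.1), SLC31A2 (-1.47), SLC39A11 (-1.99), SLC44A2 (-1.14) and SLC7A8 (-2.68). In E773R at 4 h it was SLC25A18 (-2.21). In E773R at 24 h they were SLC1A3 (1.5), SLC22A5 (1.47) and SLC25A18 (-1.77).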

How the results depend on the processing

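The count of members called was recomputed for all 27 comparisons under each alternative except the other probes of a gene. It stayed within 1.5 times for all 27 with the offset of 50, with the replicate number as a block and without the 2 arrays that correlated least with their groups, an alternative chosen after seeing the data. With the slide as a block it became 6 (from 3) for A477T at 4 h, 1 (from 0) for GRgamma over GRalpha at 0 h, 5 (from 2) for 30iiB over GRalpha at 0 h, 2 (from 1) for E773R over GRalpha at 0 h, 7 (from 4) for GRgamma minus GRalpha at 24 h, 1 (from 0) for 30iiB minus GRalpha at 24 h and 5 (from 3) for E773R minus GRalpha at 24 h. With median scaling it became 5 (from 8) for GRgamma at 2 h, 1 (from 2) for A477T at 2 h, 4 (3 higher and 1 lower, from 5 split 3 and 2) for 30iiB at 2 h, 34 (13 higher and 21 lower, from 40 split 20 and 20) for 30iiB at 24 h, 0 (from 1) for E773R at 2 h, 1 (from 2) for E773R at 4 h, 8 (from 15) for E773R at 24 h, 3 (2 higher and 1 lower, from 4 split 4 and 0) for GRgamma minus GRalpha at 24 h, 7 (from 11) for A477T minus GRalpha at 24 h and 1 (0 higher and 1 lower, from 3 split 2 and 1) for E773R minus GRalpha at 24 h. Without background correction it became 5 (from 3) for GRalpha at 2 h, 0 (from 1) for E773R at 2 h, 1 (from 2) for E773R at 4 h and 1 (from 3) for E773R minus GRalpha at 24 h. Without the filter on detection it became 1 (from 3) for E773R minus GRalpha at 24 h. With the filter at 40 arrays it became 1 (from 3) for E773R minus GRalpha at 24 h. With the authors' deposited normalised values it became 11 (6 higher and 5 lower, from 3 split 3 and 0) for GRalpha at 2 h, 17 (10 higher and 7 lower, from 8 split 7 and 1) for GRalpha at 4 h, 75 (from 46) for GRalpha at 24 h, 14 (9 higher and 5 lower, from 8 split 8 and 0) for GRgamma at 2 h, 22 (14 higher and 8 lower, from 7 split 7 and 0) for GRgamma at 4 h, 80 (from 49) for GRgamma at 24 h, 6 (from 2) for A477T at 2 h, 9 (3 higher and 6 lower, from 3 split 0 and 3) for A477T at 4 h, 48 (27 higher and 21 lower, from 19 split 6 and 13) for A477T at 24 h, 9 (4 higher and 5 lower, from 5 split 3 and 2) for 30iiB at 2 h, 14 (from 9) for 30iiB at 4 h, 81 (from 40) for 30iiB at 24 h, 6 (5 higher and 1 lower, from 2 split 2 and 0) for E773R at 4 h, 35 (18 higher and 17 lower, from 15 split 10 and 5) for E773R at 24 h, 2 (from 0) for GRgamma over GRalpha at 0 h, 11 (from 5) for A477T over GRalpha at 0 h, 19 (10 higher and 9 lower, from 2 split 2 and 0) for 30iiB over GRalpha at 0 h, 8 (from 1) for E773R over GRalpha at 0 h, 1 (from 0) for GRgamma minus GRalpha at 4 h, 9 (7 higher and 2 lower, from 4 split 4 and 0) for GRgamma minus GRalpha at 24 h, 20 (5 higher and 15 lower, from 11 split 1 and 10) for A477T minus GRalpha at 24 h and 8 (4 higher and 4 lower, from 3 split 2 and 1) for E773R minus GRalpha at 24 h. With only the arrays of the compared groups it became 1 (from 3) for GRalpha at 2 h, 2 (from 8) for GRgamma at 2 h, 4 (from 7) for GRgamma at 4 h, 1 (from 5) for 30iiB at 2 h, 0 (from 1) for E773R at 2 h, 1 (from 2) for E773R at 4 h, 1 (from 2) for 30iiB over GRalpha at 0 h and 0 (from 1) for E773R over GRalpha at 0 h. The 2 h calls of SLC12A8 in GRgamma, of SLC9A2 in 30iiB and GRalpha and of SLC25A25 in 30iiB were lost there. With the authors' values more of all genes were called too, 17.8% in A477T at 24 h, against 9.25%. Leaving out 1 array at a time gave 2 to 6 (all arrays 3) for GRalpha at 2 h, 4 to 7 (all arrays 8) for GRgamma at 2 h, 1 to 3 (all arrays 2) for A477T at 2 h, 2 to 5 (all arrays 3) for A477T at 4 h, 12 to 19 (all arrays 19) for A477T at 24 h, 5 to 9 (all arrays 9) for 30iiB at 4 h, 0 to 1 (all arrays 1) for E773R at 2 h, 1 to 2 (all arrays 2) for E773R at 4 h, 0 to 1 (all arrays 0) for GRgamma over GRalpha at 0 h, 3 to 8 (all arrays 5) for A477T over GRalpha at 0 h, 1 to 5 (all arrays 2) for 30iiB over GRalpha at 0 h, 0 to 2 (all arrays 1) for E773R over GRalpha at 0 h, 0 to 1 (all arrays 0) for 30iiB minus GRalpha at 24 h and 1 to 3 (all arrays 3) for E773R minus GRalpha at 24 h, and moved no other count by over 1.5 times. The replicate numbers were not taken to pair samples. In 0 of 15 comparisons did all 4 same-numbered pairs deviate together (correlations -0.47 to 0.69). In some comparisons 3 of the 4 did, as in GRalpha at 2 h (-0.26 to 0.69) and E773R at 2 h (0.03 to 0.67). A rule that needs all 4 pairs cannot show that pairing was absent. With the replicate block 47 members were called in GRalpha at 24 h, against 46 without it. Of 138 named calls 91 held under every alternative that was refitted, 47 were lost under at least 1, and none changed sign. Other probes of a gene were not part of this count, and those of SLC25A25 disagreed in 30iiB at 2 h. The median of all genes moved with median scaling by -0.18 to 0.12, so changes under it are relative to that shift. The causes were not tested. Signal near background limits the dim members: a probe detected on 0 of 4 arrays has only a bound there, and the offset of 16 shrinks its difference.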

Other observations

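Of the 49 solute carrier symbols detected on 4 to 39 arrays, and so not among the 203, 9 were called in at least 1 comparison with 0 h, and were detected on 10 to 35 arrays. The matching share of all genes detected that rarely is not given here. Such a gene may have passed the filter of 4 arrays only through the groups in which it was high. Its fitted difference may then rest on values at background, which leave its size uncertain. Detection by group and bounds are not given for these 9. SLC12A3, the thiazide-sensitive sodium chloride cotransporter of the kidney, was detected on 16 arrays. It rose in 30iiB by 1.04 at 2 h, 1.63 at 4 h and 2.67 at 24 h (adjusted p = 7.2e-14), and in GRalpha by 1.08 at 2 h and 1.89 at 4 h. SLC51A, a subunit of the steroid and bile acid carrier OST, was detected on 14 arrays and rose in A477T by 1.75 at 2 h and 2.53 at 4 h (adjusted p = 1.3e-12). Its difference between alleles is not given here. SLC2A4, the insulin-regulated glucose carrier GLUT4, rose in GRgamma at 24 h (0.91). The remaining calls, all at 24 h, were SLC35E2A in GRgamma (1.13), 30iiB (0.86) and GRalpha (0.91), SLC25A45 in GRalpha (1.17), SLC6A11 in A477T (0.9), SLC7A3 (1.23) and SLC6A20 (0.83) in 30iiB, and SLC5A10 in E773R (-0.71).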
